A study of Mus musculus with 4 samples.

Results

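The genes described here build and remodel the matrix of muscle outside the fibrillar collagens: the basement membrane, the small proteoglycans, the matrix glycoproteins, the proteases with their inhibitors, and the enzymes that modify and crosslink collagen. They were taken by name from a list of 45 genes. Of these, 39 had at least 1 probe set assigned to them alone in the platform annotation, out of 8252 genes so annotated in all, and the probe set with the highest mean over the 4 arrays stood for each gene. Prelp, Fbn1, Thbs1, Comp, Tnmd and Plod1 had none and were not analysed here. Another 5 genes (Nid1, Nid2, Tnc, Mmp2 and Lox) lay below the filter on dim probe sets, a mean intensity of 27.7 over the 4 arrays, which left 34.

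RNA of soleus, a slow-twitch calf muscle, was measured on 4 arrays, 2 from wildtype mice and 2 from HSL-null mice, which lack hormone-sensitive lipase, the product of Lipe. Per the labels, both arrays of a genotype are technical duplicates of muscle pooled from 5 female mice aged 6 months. Each genotype is therefore 1 biological sample, the duplicates measure array error and not the spread between animals, and no p-value is given. The labels used here do not give the strain or the allele by which the gene was disrupted.

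Every muscle fibre is wrapped in a basement membrane, a sheet of laminin and type IV collagen networks joined by nidogen and perlecan, to which the fibre is anchored through dystroglycan and integrins. Between the fibres lies interstitial matrix, made mainly by fibroblasts, in which small leucine-rich proteoglycans and glycoproteins set how collagen fibrils assemble and elastic fibres give recoil. Fat cells, capillaries and small arteries within the muscle carry basement membranes of their own, and in RNA of whole muscle fewer cells of a type and less RNA per cell cannot be told apart.

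The regulatory sequence is shown for 4 genes whose arrays did not overlap between the genotypes: Fmod and Postn, higher in HSL-null, and Lama2 and Cyr61, lower. RefSeq windows of 250 bases before a gene's start were found for 30 of the 45 genes (GRCm38.p6), and none for Eln or Mgp. Fmod lies at chr1:134037004-134037253 on the plus strand, Postn (the downstream of its starts in the table) at chr3:54360857-54361106 on the plus strand, Lama2 at chr10:27616943-27617192 on the minus strand and Cyr61 at chr3:145649986-145650235 on the minus strand. Each is printed 5′ to 3′ up to the base before the start, and capitals mark matches, on either strand, to TATAAA (a core promoter element), GGGCGG (called a GC box here), CATTCC (the site of TEAD factors) and CCAAT.
Fmod: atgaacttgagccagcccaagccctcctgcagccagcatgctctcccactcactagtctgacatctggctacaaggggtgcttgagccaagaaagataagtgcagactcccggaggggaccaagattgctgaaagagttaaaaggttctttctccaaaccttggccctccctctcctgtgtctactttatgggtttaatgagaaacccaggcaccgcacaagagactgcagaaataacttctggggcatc
Postn: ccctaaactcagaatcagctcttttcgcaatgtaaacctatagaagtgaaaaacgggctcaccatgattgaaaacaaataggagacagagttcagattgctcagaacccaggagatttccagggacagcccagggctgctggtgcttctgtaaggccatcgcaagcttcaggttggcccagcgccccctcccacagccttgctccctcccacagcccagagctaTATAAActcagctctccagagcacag
Lama2: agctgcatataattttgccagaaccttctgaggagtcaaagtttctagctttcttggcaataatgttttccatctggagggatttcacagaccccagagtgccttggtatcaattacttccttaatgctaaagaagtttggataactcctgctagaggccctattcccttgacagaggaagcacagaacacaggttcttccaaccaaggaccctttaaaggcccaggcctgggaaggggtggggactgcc
Cyr61: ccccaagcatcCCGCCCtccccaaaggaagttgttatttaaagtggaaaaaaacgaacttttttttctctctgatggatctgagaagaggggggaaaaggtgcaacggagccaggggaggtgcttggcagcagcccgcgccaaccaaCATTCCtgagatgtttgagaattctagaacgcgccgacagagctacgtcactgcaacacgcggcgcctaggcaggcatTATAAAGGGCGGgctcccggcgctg

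TATAAA began 26 bases before the start in Postn and 25 bases before it in Cyr61, one gene higher and one lower in HSL-null. Of all 32851 windows of this length, 12.4% held TATAAA, 33.8% CCAAT, 32.7% GGGCGG and 12.6% CATTCC, and of the 30 matrix genes 5, 11, 19 and 4 did. A gene was counted if any of its windows matched, and Col18a1, Fbln1, Postn and Tnc each have an additional window. Shares of windows and counts of genes are therefore not measured alike. The 30 also include genes without a probe set or below the filter. In the Cyr61 window TATAAA and a GC box lie directly side by side, and CATTCC begins 103 bases before the start. The Fmod and Lama2 windows held none of these letters. A match describes the sequence and is not a binding site.

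The arrays gave small differences in both directions. Fmod and Postn were higher in HSL-null, Eln and Mgp were lower, and no gene of the list differed by 1.5-fold or more on all 4 pairs of a wildtype and an HSL-null array. Both HSL-null arrays lay above both wildtype arrays for 10 of 34 genes (29.4%, against 19.5% of all 6208 probe sets above the filter). They lay below for 7 genes (20.6%, against 21.1% of all), and the arrays of the other 17 overlapped. A mean difference of at least 1.2-fold (0.26 on the log2 scale) together with arrays that did not overlap was found for 2 genes higher (5.88%, against 5.77% of all) and 2 lower (5.88%, against 5.99% of all). Against 0.226% of all probe sets in either direction, 0 genes passed 1.5-fold on every pair. At each of the fold thresholds, and for genes lower on all pairs, the list was thus near the background, and it was above it only in the count of genes higher on all pairs. The median log2 difference (HSL-null minus wildtype, here and below) was 0.045 over the 34 genes and -0.0022 over all probe sets. In size, the median difference of the list (0.12) was close to the median difference between duplicates (0.10 in wildtype and 0.13 in HSL-null). Over all probe sets these medians were 0.10, 0.12 and 0.11. Of the 34 genes, 13 differed by more than both of their duplicate pairs did. The share of all probe sets that did so was not counted, so nothing is read from this number.

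**Figure D1:**
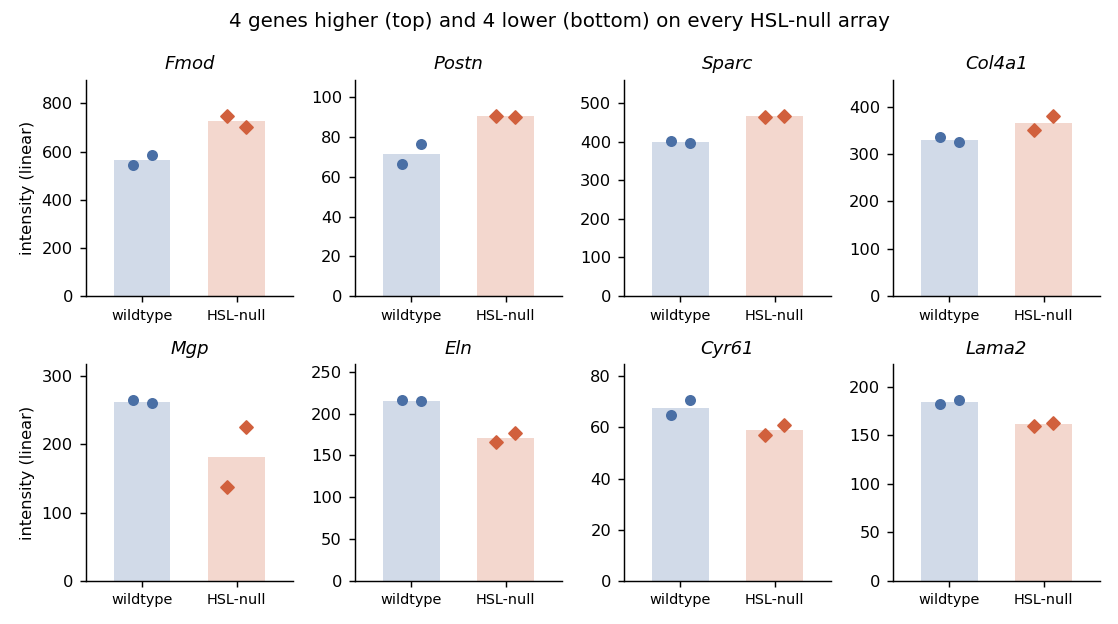
Linear intensity of 8 matrix genes on each array. Points are arrays (2 per genotype), bars their mean, and every axis starts at 0. In the top row both HSL-null points lie above both wildtype points, and in the bottom row below them, with the Mgp points of HSL-null far apart (136.9 and 225.4).

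The basement membrane genes showed no common direction. Of 10 above the filter, 3 were higher on all pairs, 2 lower and 5 overlapped, none reached 1.2-fold, and their median difference was 0.014. The shares of all probe sets, here and for the groups below, were 19.5% higher on all pairs and 21.1% lower. Sparc, a collagen-binding glycoprotein of basement membranes and remodelling matrix, read 402.3 and 396.9 for wildtype against 465.0 and 466.9 for HSL-null. The means, 399.6 ± 3.82 and 465.9 ± 1.34 (SD, n = 2 arrays each), differed by 0.22 ± 0.010 (SE of the duplicates, here and below). The duplicates lay close together in both pools, and the gap between the genotypes was the widest of the basement membrane genes.

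Type IV collagen forms the sheet-like network of the basement membrane from alpha-1 and alpha-2 chains, and the genes of these chains, Col4a1 and Col4a2, start head to head on opposite strands. In RefSeq their windows of 300 bases around the starts share 78 bases, and the starts lie 21 bases apart. Col4a1 measured 335.7 and 324.6 in wildtype and 351.8 and 380.9 in HSL-null (0.15 ± 0.062), higher on all pairs. Col4a2 measured 349.1 and 382.5 in wildtype and 404.3 and 329.3 in HSL-null (-0.0021 ± 0.16). The Col4a2 arrays of HSL-null lay on both sides of the wildtype arrays, so that no direction was resolved for this neighbour. Col18a1, whose product carries the endostatin fragment, measured 61.6 and 56.8 in wildtype and 62.4 and 67.9 in HSL-null (0.14 ± 0.084), the nearest arrays being almost level.

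Laminins are cross-shaped trimers of an alpha, a beta and a gamma chain, and the alpha-2 chain Lama2 marks the laminins of the muscle fibre. Lama2 measured 181.8 and 185.8 in wildtype and 159.7 and 162.9 in HSL-null, 1.14-fold lower (-0.19 ± 0.021). Lamb2, a beta chain enriched at the neuromuscular junction, measured 152.0 and 141.3 in wildtype and 132.5 and 140.1 in HSL-null (-0.11 ± 0.066). Both were lower on all pairs, Lama2 by several times its duplicate spread and Lamb2 with its nearest arrays almost touching. Under cyclic loess the arrays of Lamb2 overlapped. The other chains overlapped: Lama4, the alpha chain of blood vessel laminins, at -0.098 ± 0.17, Lamb1 at 0.014 ± 0.069 and Lamc1, the common gamma chain, at 0.014 ± 0.13. Hspg2, which encodes perlecan, measured 138.0 and 113.4 in wildtype and 159.0 and 129.7 in HSL-null (0.20 ± 0.20) and overlapped as well. The nidogens Nid1 and Nid2, linkers of the laminin and collagen networks, lay below the filter, with single arrays between 8.3 and 15.5.

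The small leucine-rich proteoglycans, which bind collagen fibrils and regulate their width, lay mostly above 0. Of the 4 measured, 3 were higher on all pairs and Bgn overlapped, with a median of 0.081. Fmod, which encodes fibromodulin, a proteoglycan abundant in tendon, measured 543.1 and 584.5 in wildtype and 748.2 and 702.1 in HSL-null. From a wildtype mean of 563.8 ± 29.3 to an HSL-null mean of 725.2 ± 32.6 (SD, n = 2 arrays each) the difference was 1.29-fold (0.36 ± 0.070), and the closest arrays still differed 1.2-fold. It was past 1.2-fold under each of the 14 alternatives tried, though those of floor, filter, probe set choice and block left its difference unchanged. Dcn, which encodes decorin, measured 1902.8 and 1852.3 in wildtype and 1978.0 and 1989.2 in HSL-null (0.079 ± 0.020). Lum, which encodes lumican, measured 238.6 and 232.4 in wildtype and 246.1 and 252.5 in HSL-null (0.082 ± 0.027). These 2 differences were under 1.1-fold but larger than the gaps between duplicates. Dcn overlapped between the genotypes under quantile normalization, where it differed by 0.032. Bgn, which encodes biglycan, measured 486.4 and 499.6 in wildtype and 495.1 and 445.0 in HSL-null (-0.071 ± 0.079), and its dimmer probe set differed by 0.23 ± 0.31, so that the sign of Bgn was not settled.

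**Figure D2:**
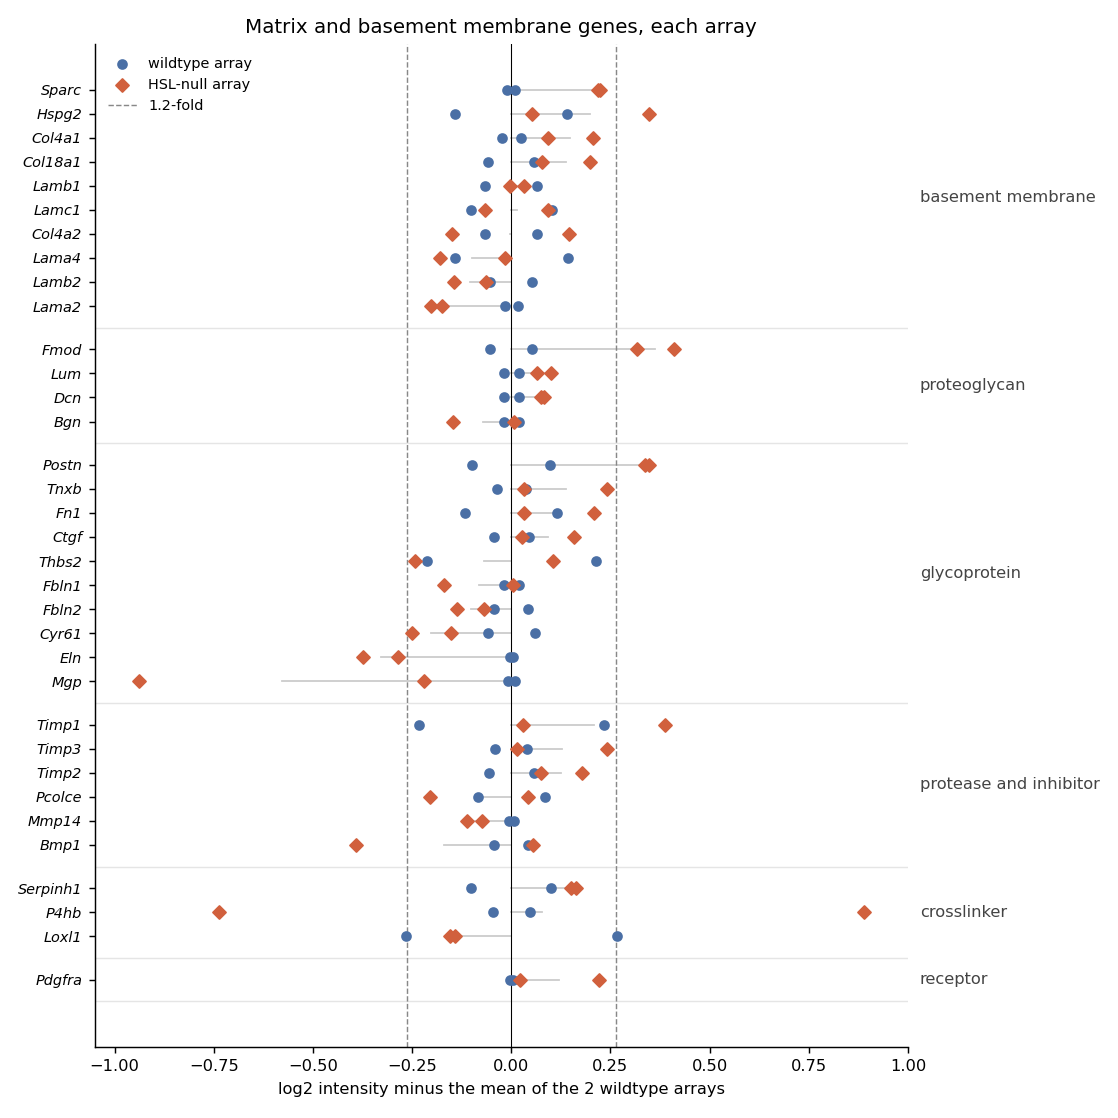
Each row is 1 of the 34 matrix genes, grouped by role, and each point 1 array, plotted as log2 intensity minus the mean of the 2 wildtype arrays. Circles are wildtype and diamonds HSL-null arrays, grey lines run to the HSL-null mean, and dashed lines mark 1.2-fold. Fmod and Postn lie right of the dashed line, Eln and Mgp have their mean left of it, and the P4hb diamonds lie far apart.

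Glycoproteins lay on both sides, more of them lower. Of 10 above the filter, 1 was higher on all pairs (10%, against 19.5% of all probe sets), 4 were lower (40%, against 21.1%) and 5 overlapped. Their median was -0.075, and it changed sign without HSL-null array 1. Postn, which encodes periostin, a matricellular protein made by fibroblasts of load-bearing tissue, measured 66.6 and 76.3 in wildtype and 90.7 and 90.0 in HSL-null, 1.27-fold higher (0.34 ± 0.098). Without wildtype array 1 the difference was 0.24, under 1.2-fold. Other adhesive glycoproteins lay above 0 with arrays that overlapped: Fn1, which encodes fibronectin, at 0.12 ± 0.15, and Tnxb, a tenascin of connective tissue, at 0.14 ± 0.11 on its brighter probe set and -0.029 ± 0.072 on the other.

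Eln and Fbln2, both of elastic fibres, were lower in HSL-null, while the arrays of Fbln1 overlapped. Eln encodes elastin, the core of elastic fibres in arteries and fascia. It measured 215.7 and 214.6 in wildtype and 166.1 and 176.6 in HSL-null, with means of 215.2 ± 0.778 (SD, n = 2 arrays) and 171.4 ± 7.42, 1.26-fold lower (-0.33 ± 0.044). The wildtype duplicates were nearly equal, both HSL-null arrays lay well below them, and Eln stayed past 1.2-fold under each of the 14 alternatives. Those of floor, filter, probe set choice and block left the Eln difference unchanged. Fbln2, which encodes a fibulin found along elastic fibres and vessel walls, measured 394.8 and 418.9 in wildtype and 387.6 and 370.1 in HSL-null (-0.10 ± 0.054). It was lower on all pairs, though by little, and overlapped with median centring. Fbln1, a related fibulin, was measured by 3 probe sets above the filter, at -0.082 ± 0.088, -0.091 ± 0.19 and -0.032 ± 0.056, each with arrays that overlapped.

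Mgp, which encodes matrix Gla protein, an inhibitor of calcification made by vascular smooth muscle and cartilage, had the widest difference of the 34 genes above the filter. It measured 264.0 and 260.7 in wildtype and 136.9 and 225.4 in HSL-null, with means of 262.4 ± 2.33 (SD, n = 2 arrays) and 181.2 ± 62.6, 1.49-fold lower (-0.58 ± 0.36). HSL-null array 1 set most of this gap. Without it Mgp differed by -0.22, under 1.2-fold, and without HSL-null array 2 by -0.94. Among markers of smooth muscle, a cell type that makes elastin and matrix Gla protein, Myh11, its myosin heavy chain, was lower too, at 76.9 and 83.1 in wildtype and 51.3 and 55.1 in HSL-null (-0.59 ± 0.076). Acta2, the smooth muscle actin, measured 171.7 and 177.4 in wildtype and 184.6 and 174.5 in HSL-null. Of 10 pericyte and smooth muscle markers above the filter, 2 were higher on all pairs and 3 lower (against 19.5% and 21.1% of all probe sets), with a median of 0.017. The higher ones were Mcam at 0.28 ± 0.062 and Tagln at 0.12 ± 0.078. The lower ones were Myh11, Notch3 at -0.11 ± 0.079 and Des at -0.045 ± 0.0067. The summed intensity over 12 genes of this list lay between 1548 and 1602 in wildtype and 1553 and 1574 in HSL-null. Des was the brightest of them, at 481.6 and 483.3 in wildtype and 469.7 and 465.7 in HSL-null. The sum therefore says little about the dimmer markers. The part of pericytes and smooth muscle in the lower Eln and Mgp was not tested.

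Cyr61 and Ctgf, now named Ccn1 and Ccn2, encode secreted matricellular proteins and are textbook targets of mechanical and TEAD signalling. Cyr61 measured 65.0 and 70.5 in wildtype and 56.9 and 60.9 in HSL-null, lower by -0.20 ± 0.076 on the log2 scale. Ctgf measured 186.4 and 175.4 in wildtype and 184.2 and 201.8 in HSL-null (0.093 ± 0.079). One was lower on all pairs and the other overlapped, so that the 2 related genes had no shared direction. Thbs2, which encodes an antiangiogenic thrombospondin, measured 87.4 and 65.1 in wildtype and 63.8 and 81.2 in HSL-null (-0.068 ± 0.27). Tnc, which encodes tenascin C, a glycoprotein of tendon junctions and injury, lay below the filter at 10.4 and 3.6 in wildtype and 12.9 and 16.0 in HSL-null, with 1 wildtype array under the floor of 5.7, below which values were not distinguished.

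Proteases and their inhibitors were split, with a median of 0.023. Of 6 above the filter, Timp2 was higher on all pairs, Mmp14 was lower and 4 overlapped, and none reached 1.2-fold. Timp2, a metalloproteinase inhibitor that also takes part in activating Mmp2, measured 42.5 and 46.0 in wildtype and 50 and 46.6 in HSL-null (0.13 ± 0.076), and its arrays overlapped under quantile normalization and under cyclic loess. Mmp14, the membrane-bound collagenase of that same activation, measured 112.3 and 111.3 in wildtype and 103.4 and 106.3 in HSL-null (-0.093 ± 0.021). Inhibitor and protease thus lay on opposite sides of 0, each by under 1.1-fold. The other inhibitors overlapped, Timp1 at 0.21 ± 0.29 and Timp3, the matrix-bound inhibitor, at 0.13 ± 0.12. Mmp2 itself, gelatinase A, lay below the filter at 4.6 and 2.4 in wildtype and 10.2 and 7.4 in HSL-null, with both wildtype arrays under the floor.

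Bmp1, the proteinase that trims the C-terminal propeptide of procollagen, gave opposite readings on its 2 probe sets. The brighter one measured 36.3 and 38.5 in wildtype and 38.8 and 28.5 in HSL-null (-0.17 ± 0.23), and the other 26.6 and 23.0 in wildtype and 40.3 and 33.2 in HSL-null (0.56 ± 0.17). The second did not overlap and was past 1.2-fold, the first overlapped, and no direction was given to the gene. Pcolce, the enhancer of that proteinase, measured 172.2 and 193.7 in wildtype and 158.5 and 188.2 in HSL-null (-0.081 ± 0.15).

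Of the genes that fold, modify and crosslink collagen, 3 lay above the filter. Serpinh1 encodes HSP47, the collagen-specific chaperone of the endoplasmic reticulum. It measured 214.1 and 186.3 in wildtype and 223.5 and 221.8 in HSL-null (0.16 ± 0.10), higher on all pairs. P4hb, a subunit of prolyl hydroxylase, measured 107.1 and 100.3 in wildtype but 62.2 and 192.0 in HSL-null, a spread between duplicates too wide for any reading. Loxl1, an oxidase that crosslinks elastin, measured 55.1 and 38.1 in wildtype and 41.5 and 41.2 in HSL-null (-0.15 ± 0.27). Lox, the main crosslinking oxidase, lay below the filter at 16.1 and 14 in wildtype and 18.1 and 14 in HSL-null. Pdgfra, the PDGF receptor that marks the fibroblasts and fibro-adipogenic progenitors of muscle, measured 179.3 and 180.1 in wildtype and 182.3 and 209.5 in HSL-null (0.12 ± 0.10), higher on all pairs by little.

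**Figure D3:**
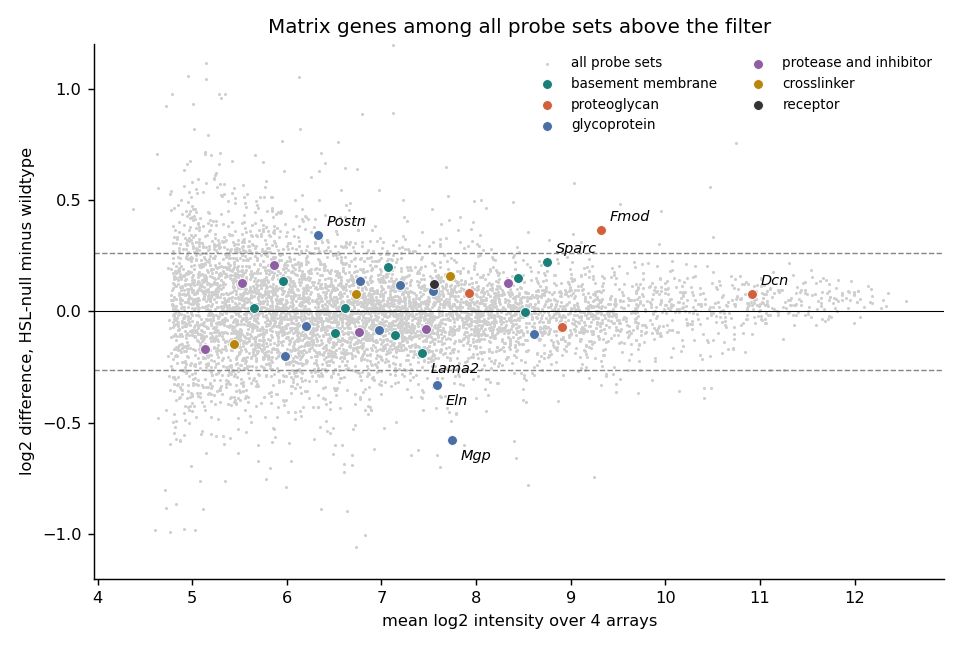
Log2 difference (HSL-null minus wildtype) against mean log2 intensity over the 4 arrays. Grey points are the 6208 probe sets above the filter (14 lie outside the plotted range of ±1.2), coloured points the 34 matrix genes by role, and dashed lines mark 1.2-fold. Most coloured points lie within the grey cloud at their level, with Fmod, Eln and Mgp towards its edges.

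Other matrix genes were read from lists by role. In all, 82 genes of these lists were above the filter, with a median of -0.0017. Past 1.2-fold, 10 were higher (12.2%, against 5.77% of all probe sets) and 5 lower (6.10%, against 5.99% of all). The same shares of all probe sets stand beside the counts of the single lists below. Further basement membrane genes had 2 of 6 past 1.2-fold, both higher: Col15a1, a collagen that ties basement membranes to the interstitium, at 0.36 ± 0.072 and the laminin chain Lama5 at 0.29 ± 0.088. Further proteoglycans had 1 of 7 higher, Ogn, the leucine-rich osteoglycin, at 0.33 ± 0.048, and 1 lower, the syndecan Sdc4, at -0.46 ± 0.20. Of 10 further glycoproteins, Vtn, which encodes vitronectin, was lower at -0.27 ± 0.11 and none was higher. Among 9 further proteases and inhibitors none passed, with Serpinf1 at 0.12 ± 0.045 and Prss23 at -0.065 ± 0.032, and among 6 further collagen-processing genes none passed, with P4ha2 at -0.13 ± 0.077 and Ppib at 0.18 ± 0.14.

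Of 12 collagens outside the basement membrane, 7 were higher on all pairs (58.3%, against 19.5% of all probe sets) and 1 lower (8.33%, against 21.1%). Their median was 0.14. Among them, 4 were past 1.2-fold higher and 1 lower, with Col9a1 at 1.06 ± 0.42, Col1a1, a chain of type I collagen, at 0.48 ± 0.050 and Col8a1, a vascular collagen, at -0.44 ± 0.12. Col9a1 rested on dim values, 23.2 and 19.9 in wildtype and 33.7 and 59.3 in HSL-null. Matrix receptors had 1 of 11 past 1.2-fold, Mcam at 0.28 ± 0.062, and a median of -0.0028. The TGF-beta axis had 2 of 21 higher, the BMP receptors Bmpr2 at 0.37 ± 0.19 and Bmpr1a at 0.34 ± 0.0065, and 2 lower, led by Smad6, an inhibitor of BMP signalling, at -0.31 ± 0.0073, with a median of -0.0074.

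**Figure D4:**
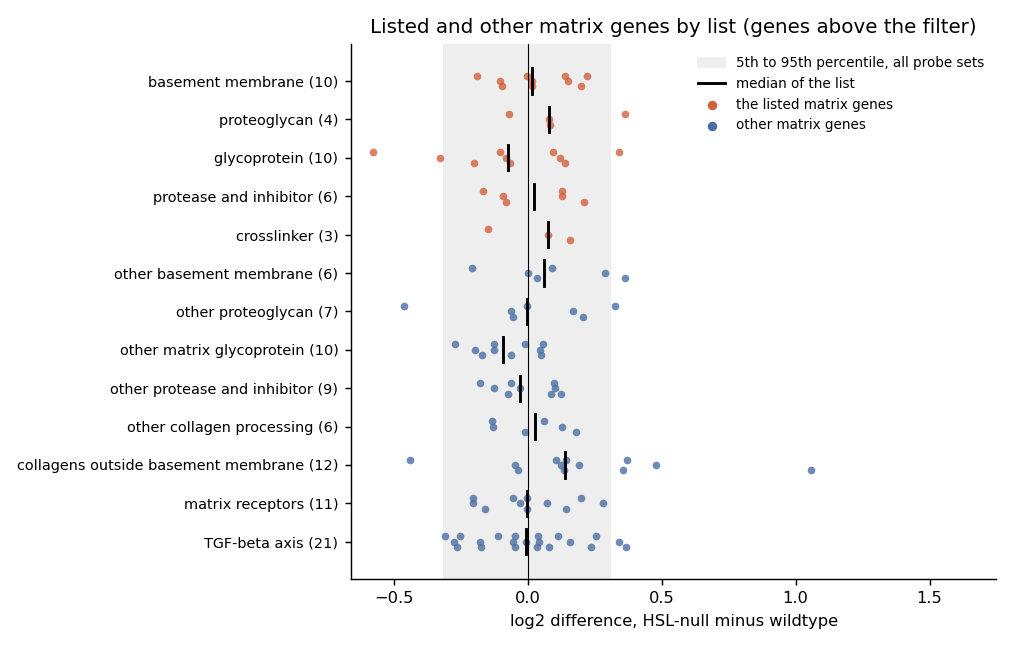
Log2 difference (HSL-null minus wildtype) of the genes above the filter in each list, with the number of genes in brackets. Orange points are the listed matrix genes, blue points other matrix genes, black bars list medians, and the grey band the range from the 5th to the 95th percentile of all 6208 probe sets. Of the medians shown, that of the collagens outside the basement membrane (0.14) lies furthest from 0, and all medians lie inside the band.

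The tissue and the genotype were checked on their markers. Beside the counts that follow, 19.5% of all probe sets above the filter were higher on all pairs and 21.1% lower. Slow myofibre genes were at the top of the scale, with Tnnt1, the slow troponin T, at 5646 to 6183 on the 4 arrays. Of 15 myofibre markers, 6 were higher on all pairs and 0 lower (median 0.048), led by the fast myosin Myh4 at 279.2 and 277.3 in wildtype and 1897.1 and 1781.6 in HSL-null. Actn3, also past 1.2-fold, measured 336.4 and 385.2 in wildtype and 1115.6 and 1078.1 in HSL-null. Lipe measured 71.4 and 70.2 in wildtype and 16.2 and 19.4 in HSL-null. Fibroblast markers, a list that shares Dcn, Lum and Pdgfra with the genes described here, had 9 of 16 higher on all pairs and 2 lower, with a median of 0.081 and a summed intensity over 18 genes of 6325 to 6404 in wildtype and 6682 to 6869 in HSL-null. Of the higher ones, Col1a1, Col1a2, Col3a1, Mfap5 and Serpinf1 also belong to the other matrix lists above. The list is therefore no separate measure of fibroblasts. Thy1, a fibroblast surface marker and the only higher one in no matrix list, differed by 0.45 ± 0.043. The lower ones, Gsn and S100a4, differed by -0.16 ± 0.018 and -0.22 ± 0.15. White adipocyte markers had 6 of 9 lower on all pairs and 1 higher, with a median of -0.25 and Adipoq at 150.2 and 157.2 in wildtype and 73.5 and 74.1 in HSL-null. Lipe itself, whose product HSL-null mice lack, is among the 6. The higher one, Agt, measured 25.3 and 30.4 in wildtype and 66.6 and 44.7 in HSL-null (0.98 ± 0.32). Lep overlapped, at -0.10 ± 0.21. The summed intensity over 12 adipocyte marker genes was 4962 to 5172 in wildtype and 4513 to 4866 in HSL-null. Most of this sum was Car3, whose arrays overlapped, at 3722.9 and 3416.8 in wildtype and 3803.1 and 3570.7 in HSL-null. The sum therefore says little about the other markers. Tendon and fascia markers had 1 of 4 higher, Fmod itself, with the tendon factor Scx at -0.13 ± 0.18, and a summed intensity over 7 genes of 1477 to 1544 in wildtype and 1544 to 1768 in HSL-null. Fmod, at 543.1 and 584.5 in wildtype and 748.2 and 702.1 in HSL-null, is part of that sum. The sum is therefore no separate measure of tendon tissue. Endothelial markers had 2 of 15 higher and 4 lower (median -0.047), with Sox18 at -0.38 ± 0.057 and Pecam1 at -0.28 ± 0.12, macrophage markers 1 of 10 each way (median -0.020), with C1qa at 0.35 ± 0.17 and Cd74 at -0.32 ± 0.045, and Schwann cell markers 0 of 4 either way, with Pmp22 at -0.032 ± 0.13 and Mbp at 0.20 ± 0.24. The 3′ to 5′ ratio of the beta-actin control, a measure of RNA quality, was 0.688 and 0.706 in wildtype and 0.816 and 0.823 in HSL-null, and that of Gapdh 0.955 and 0.927 in wildtype and 0.922 and 0.912 in HSL-null. The part of cell make-up and of RNA quality in the differences of the matrix genes was not tested.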

How the data were processed

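The series holds linear intensities of 12488 probe sets on 4 arrays, in a table deposited by the authors. Each array had a trimmed mean of 100.1 (2% of the values removed at each end), as tested on the values. Not given in the sources used here are the software, the background correction and the scaling step. No detection calls were used, and the number of arrays limits the precision. Names came from the platform annotation, where 10855 probe sets had 1 symbol, and older symbols were matched by gene ID. Probe sets of Lamb1, Lamc1, Mgp, Tnxb and Fbln1 carry a suffix for probes that related sequences may share, as do those of Itga7, Itgb1 and Tnnt1. The probe set of P4hb carries a different suffix.

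Values were floored at the 25th percentile (5.7) and put on the log2 scale, and 6208 probe sets remained after removal of 66 controls and of means below 27.7. The arrays of a genotype are duplicates of 1 pool, so no test across animals was possible. Genes are described by whether their arrays overlap, by a mean difference of 1.2-fold, and by 1.5-fold on every pair. SDs are over 2 arrays, and standard errors come from the duplicates. The rules were tested on simulated data. Alternatives (limma 3.58.1, R 4.3.3 for quantile and loess) covered scaling, floor, filter, probe set choice, each array left out and the replicate number as a block. All other steps ran in Python 3.11.15 with pandas 2.3.3 and numpy 2.4.6.

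The genes and lists were chosen with earlier results of these data known. The genes given in full are those past 1.2-fold and the 2 brightest of each role, and other list genes are those past 1.2-fold (at most 3) or else the 2 brightest. The marker lists name further genes that do not meet this rule, among them Tnnt1, Gsn, S100a4, Car3, Lep, Scx, Tagln, Notch3 and Des. Every further gene of the 45 is named because it belongs to the list. Sparc, Col4a1, Lama2 and Cyr61 in the bar plot, the printed Lama2 and Cyr61 windows, and Acta2 beside Mgp were chosen after their values were seen.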

Additional observations from a re-analysis of the deposited data

How the results depend on the processing

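Fmod and Eln were past 1.2-fold under all 14 alternatives run. Postn was not without wildtype array 1 (and lay below the filter at the 75th percentile), and Mgp was not without HSL-null array 1. For Fmod and Eln, the alternatives of floor, filter, probe set choice and block left the difference as it was. Under the others it ran from 0.31 to 0.42 for Fmod and from -0.37 to -0.28 for Eln. The number past 1.2-fold higher was 2 with the values as deposited, 4 without the filter (with Tnc and Mmp2, both with arrays under the floor) and 1 with the filter at the 75th percentile. The list median of 0.045 was 0.079 with that filter and 0.078 with the mean over all probe sets of a gene, and the basement membrane median of 0.014 was 0.074 with that filter, which tested 23 genes. With single arrays left out, genes higher on the remaining pairs numbered 14 to 15 and genes lower 10 to 12. Genes past 1.2-fold numbered 4 to 7 (higher 2 to 4, lower 2 to 4). Genes past 1.5-fold on every pair numbered 0 to 2, with 0 to 1 higher (P4hb without HSL-null array 1) and 0 to 2 lower (Mgp and P4hb without HSL-null array 2). Fewer pairs remain in these runs, so the rules are easier to pass. No share of all probe sets was counted for them, and the shares given for 4 pairs are not their background. In these runs the medians were 0.031 to 0.075 for all genes, -0.0097 to 0.084 for basement membrane and -0.14 to 0.15 for crosslinkers. The glycoprotein median changed sign without HSL-null array 1 (0.018). The protease and inhibitor median of 0.023 was -0.055 without wildtype array 1, -0.081 with the filter at the 75th percentile and 0.13 without a filter or with the mean over probe sets. The median of all probe sets moved from -0.0022 to 0.013 at most between scalings. With the mean over probe sets Bgn (-0.071) was 0.080 and Bmp1 (-0.17) was 0.20. The differences of Fmod, Postn, Eln and Mgp kept their sign under every alternative that gave a new value, while Col4a2, Lama4, Lamb1, Lamc1, Fbln1, Thbs2, Timp1, Pcolce, Loxl1 and P4hb had both signs. With the replicate number as a block, 14 genes were higher and 10 lower, among them the 10 and 7 called without it, the same 4 were past 1.2-fold, and the list median was 0.045. The block, too, compares fewer than 4 pairs, and no share of all probe sets was counted for it. The labels give no basis for pairing equal numbers, and the duplicate differences of the 2 genotypes correlated at r = -0.086 over 6208 probe sets. Differences under about the duplicate gaps (0.10 and 0.13) were not resolved by these arrays.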

Other observations

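The laminin receptors of the muscle fibre, chosen after their values were seen, lay on the same side as Lama2. Dag1, which encodes dystroglycan, measured 1113.3 and 1175.3 in wildtype and 1016.3 and 970.6 in HSL-null (-0.20 ± 0.051, SE of the duplicates). Itga7, the integrin alpha chain of muscle, measured 180.1 and 166.6 in wildtype and 150.8 and 149.9 in HSL-null (-0.20 ± 0.056). Both were lower on all 4 pairs of arrays, as were 21.1% of all probe sets, and each difference was under 1.2-fold. Itgb1, the integrin beta chain that pairs with Itga7, measured 1563.4 and 1496.3 in wildtype and 1546.7 and 1507.0 in HSL-null. Agrn, which encodes agrin, a ligand of dystroglycan at the nerve ending, differed by 0.033 ± 0.0059.

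Kera, a leucine-rich proteoglycan of the same family as Fmod and Lum, lay below the filter at 22.7 and 22.1 in wildtype and 27.2 and 28.6 in HSL-null (0.32 ± 0.041). Its arrays did not overlap, and it was chosen after its values were seen.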
